A study of Homo sapiens with 11 samples.

Results

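Solute carriers are membrane proteins that move amino acids, sugars, ions, metals, nucleosides, vitamins and drugs across the plasma membrane or the membranes of organelles. Their genes carry symbols that begin with SLC and a family number. The 155 solute carrier genes described here were all genes with such a symbol and a probe set of their own on the array, without SLC7A11 and SLC30A1, which the rule left out. They were 155 of 8549 genes measured, and where a gene had several probe sets, the one with the greatest mean level on the 11 arrays stood for it. The choice used symbols and mean levels and no treatment difference, though results of these data were known when it was made.

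The cells were of the tongue squamous carcinoma line written SCC9 in the series' design text and SSC9 in its sample labels. Control dishes received neither agent, on 3 arrays lettered A, B and C. Cisplatin, a platinum drug that binds DNA, was given at 0.5 µmol/L on 3 arrays (A, B, C), and nimesulide, an inhibitor that prefers cyclooxygenase-2, at 100 µmol/L on 3 arrays (A, B, C). Both agents together, called the combination, were given at the same concentrations on 2 arrays (A, B), and the combination of letter C was not analysed here. The length of exposure was not given in the sources used here, and all groups came from 1 cell line. Nothing in the labels says that the replicates came from separate cultures, so the spread that the p-values rest on may be technical. In these bulk samples, fewer cells with a transcript and less of it per cell cannot be told apart.

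Amino acid carriers of the plasma membrane include obligate exchangers, sodium-driven importers and paired proteins in which a heavy subunit carries a light transporting subunit to the surface. Several of them are known targets of ATF4, a transcription factor whose translation increases under amino acid shortage and endoplasmic reticulum stress. Copper importers of the SLC31 family and organic cation carriers of the SLC22 and SLC47 families have been linked to the entry and exit of platinum drugs. Nucleoside carriers bring in nucleosides and nucleoside drugs, and zinc carriers of the SLC39 and SLC30 families bring zinc into and out of the cytosol.

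Values were log2 intensities of 11 Affymetrix U133A arrays, summarised by the authors with RMA, and a difference of 1 on this scale is a 2-fold change in intensity. They ran from 2.53 to 13.4, with array medians of 5.37 to 5.43. The number of arrays limits the precision, since the median standard error of a difference between groups of 3 was 0.079. Of the epithelial markers SFN, CDH1, DSP, KRT5 and KRT14 all 5 were measured, with control means of 10.55, 10.63, 8.53, 7.82 and 5.17, while KRT17, KRT6A and TP63 were not analysed here. Markers of other cells had control means of 2.81 to 5.49 for 5 fibroblast genes, 4.27 to 6.21 for 4 leukocyte genes and 3.14 to 5.35 for 3 endothelial genes. Levels of different probe sets cannot be compared with each other, and RMA gives no level of 0, so these values do not show that a marker is absent.

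By substrate, 26 of the 155 genes were amino acid carriers, 12 were metal carriers, 4 were nucleoside carriers and 9 were organic ion carriers. The other 104 fell into 11 classes, the largest being 29 inorganic ion carriers, 18 mitochondrial carriers, 15 neurotransmitter and vesicular carriers and 10 sugar carriers. Smaller classes held 7 carriers of nucleobases, vitamins and heme, 6 of nucleotide sugars, 6 of monocarboxylates and dicarboxylates, 3 of lipids and choline and 2 of peptides. Another 5 had no assigned substrate here and 3 were pseudogenes or an antisense gene. Of all 155, 86 had a mean level above 5.40, the median of all probe set means, and 69 were at or below it. All 6 nucleotide sugar carriers, 16 of 18 mitochondrial carriers and 10 of 12 metal carriers were above it, against 1 of 4 nucleoside carriers and 3 of 9 organic ion carriers. No gene was removed for a low level.

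None of the 155 genes passed an adjusted p of 0.05 in any of 8 comparisons by limma with Benjamini-Hochberg adjustment over all 16383 probe sets. Over all 8549 genes, 0.0117% passed for nimesulide against control and 0.222% for the 5 arrays with nimesulide against the 6 without it. In the other 6 comparisons 0.0% of all genes passed. With the letter as a replicate block, again none of the 155 passed, beside 0.339% of all genes for nimesulide against control, 0.257% for the combination against control, 0.328% for the combination against cisplatin and 0.749% for the arrays with nimesulide against those without. The remaining 4 comparisons had 0.0% with the block. The smallest adjusted p of any solute carrier gene was 0.258 without the block, for SLC3A2, and 0.198 with it, for SLC7A1, both for the arrays with nimesulide against those without.

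At an unadjusted p below 0.05 the solute carriers stood near the background of all genes. For nimesulide against control there were 7 (4.52%, all genes 5.9%), for cisplatin against control 6 (3.87%, all genes 4.06%) and for the combination against control 16 (10.3%, all genes 8.73%). The combination against cisplatin gave 12 (7.74%, all genes 6.96%) and the combination against nimesulide 13 (8.39%, all genes 7.29%). Arrays with nimesulide against those without gave 10 (6.45%, all genes 8.0%), and arrays with cisplatin against those without gave 14 (9.03%, all genes 6.94%). The interaction of the agents, which asks whether the nimesulide difference depends on cisplatin, gave 9 (5.81%, all genes 4.34%). The median pooled difference of the 155 genes was -0.008 with nimesulide (all genes -0.003) and -0.023 with cisplatin (all genes -0.015). A solute carrier's level varied over the 11 arrays by a median range of 0.34, the same as over all genes (0.34), and its 4 treatment means spanned a median of 0.14 (all genes 0.13) beside a median standard deviation within a treatment of 0.097 (all genes 0.096). RMA gave values equal to 6 decimals on 3 or more arrays for 38 of the 155 genes (24.5%) and for 23.2% of all genes.

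The replicate letters allow differences within a letter. Nimesulide has 5 of them that share no array, nimesulide minus control in A, B and C and combination minus cisplatin in A and B. Cisplatin has 5 likewise, cisplatin minus control in A, B and C and combination minus nimesulide in A and B, but these use the same 11 arrays as the nimesulide differences. With nimesulide, 10 solute carriers were higher in 5 of 5 (6.45%, all genes 4.27%) and 1 was lower in 5 of 5 (0.645%, all genes 3.85%). With cisplatin, 5 were higher in 5 of 5 (3.23%, all genes 3.17%) and 10 lower in 5 of 5 (6.45%, all genes 5.38%). Without regard to letters, all arrays with nimesulide lay above all arrays without it for 2 solute carriers, SLC3A2 and SLC7A1 (1.29%, all genes 0.433%), and below for none (all genes 0.503%). All arrays with cisplatin lay above all without for SLC39A6 (0.645%, all genes 0.164%) and below for SLC25A42 (0.645%, all genes 0.316%).

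**Figure D1:**
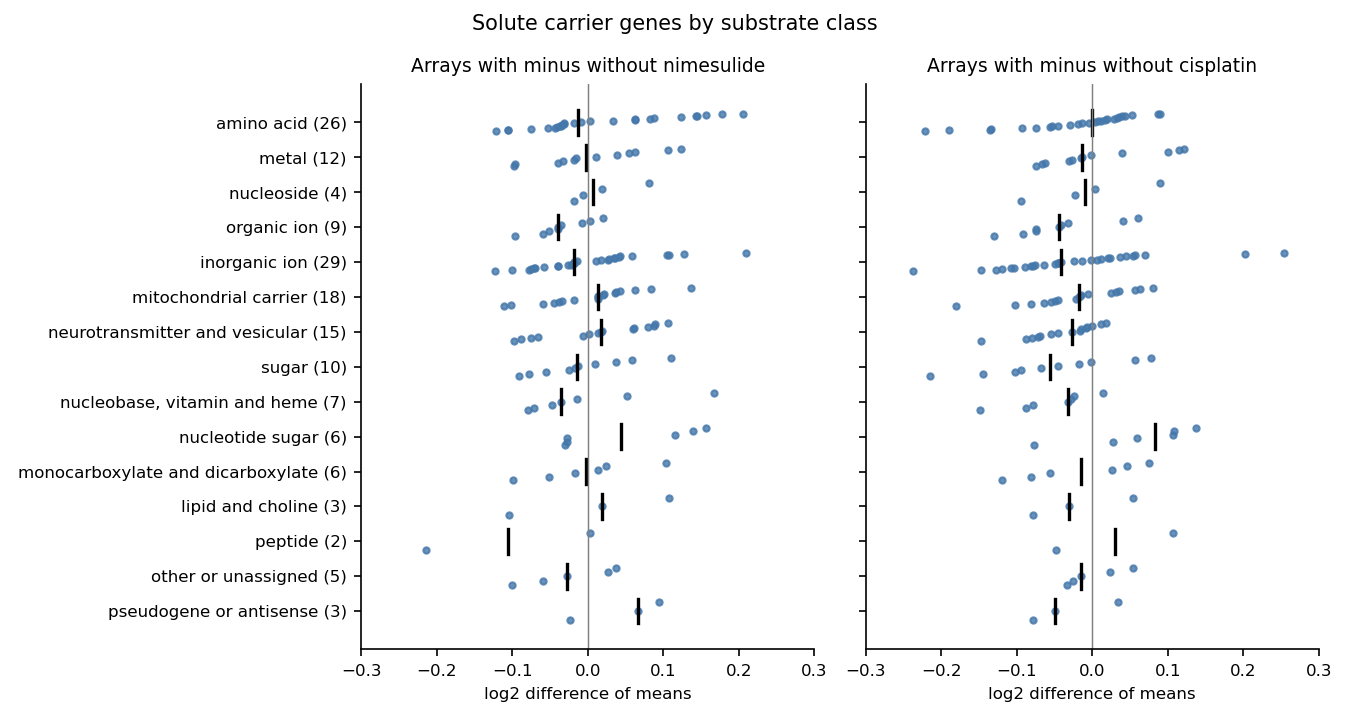
Log2 difference between the mean of the arrays with an agent and the mean of those without it, averaged over the presence of the other agent, for nimesulide (left) and cisplatin (right). Each point is 1 of the 155 solute carrier genes, black bars are class medians and the number of genes in a class is in parentheses. The points run from -0.21 to 0.21 with nimesulide and from -0.24 to 0.25 with cisplatin. The median of the amino acid class is close to 0 in both panels and its highest members reach 0.21 with nimesulide.

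The amino acid carriers as a class had a median difference near 0. It was -0.013 for the arrays with nimesulide against those without, with 12 of 26 genes higher, beside -0.003 and 48.3% higher over all genes. For cisplatin it was 0.0 with 13 of 26 higher, beside -0.015 and 40.7% over all genes. Within letters the class median for nimesulide minus control was 0.045 in A, 0.039 in B and -0.030 in C, so the letters did not share a direction. None of the 26 passed in any comparison, and 5 had an unadjusted p below 0.05 for pooled nimesulide (all genes 8.0%) and 3 for pooled cisplatin (all genes 6.94%).

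Within the class, the carriers known as ATF4 targets stood higher on the arrays with nimesulide. Of 10 on that list 7 were measured, SLC3A2, SLC7A5, SLC7A1, SLC1A4, SLC1A5, SLC6A9 and SLC43A1, and SLC7A3, SLC38A1 and SLC38A2 were not analysed here. All 7 were higher with nimesulide than in control (median 0.14, all genes -0.003) and with the combination than in control (median 0.17, all genes -0.020), while with cisplatin 3 of 7 were higher (median -0.031, all genes -0.015). The medians within letters were 0.13 in A, 0.14 in B and 0.082 in C for nimesulide minus control, and 0.13 in A and 0.12 in B for combination minus cisplatin. None of the 7 passed the adjusted threshold, and they included all 5 amino acid carriers with an unadjusted p below 0.05 in the pooled nimesulide comparison (all genes 8.0%). The list was chosen knowing that ATF4 response genes stood higher with nimesulide in these arrays, so its direction is not independent evidence. For comparison, SLC7A11, the cystine exchanger that the rule left out, was higher by 0.58 on the arrays with nimesulide (adjusted p = 0.00884).

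ATF4 binds with partners to a short DNA word, the CARE, searched here as TGATGNAA on both strands in the 250 bases before and 50 bases after each transcription start of RefSeq on GRCh38.p14. It occurred in 3.62% of 35097 promoters of all genes, in 11 of 186 promoters of solute carriers (5.91%, 127 genes matched) and in 4 of 13 promoters of the 7 genes of the ATF4 list (30.8%). Among all amino acid carriers 5 of 34 promoters held it (14.7%), and among metal carriers 2 of 17 (11.8%). The 5 promoters of amino acid carriers with the word are shown, with the matching letters in capitals and the sequence in the direction of the gene. Positions count from 0 at the first transcribed base. In SLC3A2 the word lies at position 37 on the opposite strand, in SLC7A1 at position 7, in SLC1A4 at position -7 on the opposite strand, in SLC1A5 at position -97 and in SLC1A3, which is not on the ATF4 list and read lower with nimesulide than in control in 3 of 3 letters, at position -220.
SLC3A2, chr11:62881449-62881748, plus strand: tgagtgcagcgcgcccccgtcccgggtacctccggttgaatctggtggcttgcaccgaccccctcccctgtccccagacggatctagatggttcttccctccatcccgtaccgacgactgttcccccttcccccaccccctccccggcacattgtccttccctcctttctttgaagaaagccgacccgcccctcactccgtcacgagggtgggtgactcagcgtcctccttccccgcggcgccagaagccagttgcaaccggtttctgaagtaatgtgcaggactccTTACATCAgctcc
SLC7A1, chr13:29595639-29595938, minus strand: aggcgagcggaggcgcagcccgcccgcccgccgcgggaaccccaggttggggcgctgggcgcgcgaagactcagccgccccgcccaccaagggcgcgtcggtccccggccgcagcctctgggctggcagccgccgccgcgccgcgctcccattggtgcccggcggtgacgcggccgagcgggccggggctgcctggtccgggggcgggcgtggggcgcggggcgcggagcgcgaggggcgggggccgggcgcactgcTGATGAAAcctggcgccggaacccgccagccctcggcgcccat
SLC1A4, chr2:64989149-64989448, plus strand: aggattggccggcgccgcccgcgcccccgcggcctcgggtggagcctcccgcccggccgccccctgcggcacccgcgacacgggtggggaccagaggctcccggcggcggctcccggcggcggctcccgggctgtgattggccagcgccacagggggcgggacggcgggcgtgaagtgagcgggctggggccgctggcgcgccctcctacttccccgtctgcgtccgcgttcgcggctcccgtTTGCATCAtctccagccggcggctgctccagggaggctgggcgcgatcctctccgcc
SLC1A5, chr19:46784765-46785064, minus strand: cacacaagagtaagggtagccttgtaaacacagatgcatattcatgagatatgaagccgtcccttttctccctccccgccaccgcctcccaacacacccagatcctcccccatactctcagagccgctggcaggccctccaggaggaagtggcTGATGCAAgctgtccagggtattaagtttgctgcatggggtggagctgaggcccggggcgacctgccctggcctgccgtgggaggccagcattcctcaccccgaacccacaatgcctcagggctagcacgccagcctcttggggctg
SLC1A3, chr5:36596338-36596637, plus strand: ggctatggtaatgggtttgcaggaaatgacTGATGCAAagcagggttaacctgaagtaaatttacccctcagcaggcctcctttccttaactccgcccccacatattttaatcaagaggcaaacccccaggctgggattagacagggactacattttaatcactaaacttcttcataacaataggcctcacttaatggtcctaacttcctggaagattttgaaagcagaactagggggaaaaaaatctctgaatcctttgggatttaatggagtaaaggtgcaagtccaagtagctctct
SLC3A2, SLC1A4, SLC1A5 and SLC1A3 also have listed starts without it, and the listed promoters of SLC7A5, SLC6A9 and SLC43A1 held no such word in this window. The genes were listed as known ATF4 targets, so the share of their promoters with this word is not independent evidence. A match of letters is a description of the sequence, and binding was not measured.

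SLC3A2 encodes 4F2hc, the heavy subunit that brings several light subunits to the plasma membrane. Its level was 9.67, 9.62 and 9.57 in control A, B and C, 9.63, 9.51 and 9.55 with cisplatin, 9.73, 9.77 and 9.76 with nimesulide, and 9.77 and 9.80 with both agents. The 5 arrays with nimesulide, with or without cisplatin, lay above all 6 without it. The pooled difference was 0.18 (SE 0.046, adjusted p = 0.258), with differences within letters of 0.060 to 0.29. The light subunit SLC7A5, known as LAT1, exchanges large neutral amino acids as a partner of 4F2hc. SLC7A5 read 11.18, 11.06 and 11.15 in control A, B and C, 11.15, 10.97 and 11.05 with cisplatin, 11.31, 11.28 and 11.20 with nimesulide, and 11.29 and 11.18 with both agents. Combination B lay just below control A, so the groups overlapped by that array, and within each letter the arrays with nimesulide were higher, by 0.053 to 0.23. Its pooled nimesulide difference was 0.16 (SE 0.052, adjusted p = 0.492). SLC7A5 was also lower with cisplatin within every letter, by differences of -0.11 to -0.025, and the pooled cisplatin difference was -0.053 (SE 0.052, adjusted p = 0.864).

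SLC7A1 encodes CAT1, which imports arginine and lysine. It read 8.68, 8.76 and 8.59 in control A, B and C, 8.76, 8.73 and 8.70 with cisplatin, 8.93, 8.84 and 8.79 with nimesulide, and 9.08 and 8.86 with both agents. All 5 arrays with nimesulide were above the other 6, and combination A was the highest. The pooled nimesulide difference was 0.21 (SE 0.056, adjusted p = 0.323), and it lay between 0.15 and 0.26 when any single array was left out. All 5 probe sets of SLC7A1 were higher with nimesulide in the pooled comparison, from 0.026 to 0.21. With both agents against control the difference was 0.29 (SE 0.083, adjusted p = 0.366), from 0.18 without combination A to 0.41 without combination B. The other probe sets of SLC7A1 differed by 0.097, 0.12, 0.008 and 0.001 for this comparison.

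The small neutral amino acid exchangers of the SLC1 family were also higher with nimesulide, by amounts close to the spread. SLC1A4, or ASCT1, read 7.04, 6.95 and 6.85 in control A, B and C, 7.09, 7.03 and 6.90 with cisplatin, 7.15, 7.08 and 7.04 with nimesulide, and 7.19 and 7.04 with both agents. Within letters its nimesulide differences were 0.013 to 0.18, and the groups overlapped because cisplatin A exceeded nimesulide B and C. The pooled difference was 0.12 (SE 0.056, adjusted p = 0.66), and all 4 of its probe sets were higher, by 0.12 to 0.20. SLC1A5, or ASCT2, which brings in glutamine, read 8.84, 8.48 and 8.82 in control A, B and C, 8.93, 8.36 and 8.74 with cisplatin, 8.97, 8.84 and 8.80 with nimesulide, and 8.94 and 8.68 with both agents. The B arrays without nimesulide were the lowest, and the differences of nimesulide minus control in C and combination minus cisplatin in A, at -0.022 and 0.003, were close to 0. In the limma fit without the letters, the SLC1A5 pooled nimesulide difference of 0.14 had a 95% interval of -0.071 to 0.36 and an adjusted p of 0.783.

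Glycine carrier 1, SLC6A9, read 5.16, 4.96 and 5.11 in control A, B and C, 4.92, 5.18 and 5.17 with cisplatin, 5.31, 5.14 and 5.19 with nimesulide, and 5.28 and 5.20 with both agents. Cisplatin A was the lowest array and nimesulide A the highest, and each letter was higher with nimesulide, by 0.024 to 0.35. The pooled difference of SLC6A9 was 0.14 (SE 0.062, adjusted p = 0.647). SLC43A1, or LAT3, a carrier of branched-chain amino acids, read 5.14, 5.12 and 5.05 in control A, B and C, 5.12, 5.00 and 5.10 with cisplatin, 5.29, 5.09 and 5.04 with nimesulide, and 5.20 and 5.12 with both agents. Its groups overlapped, letters B and C of nimesulide were slightly below their controls, and the pooled difference was 0.063 (SE 0.056, adjusted p = 0.847).

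**Figure D2:**
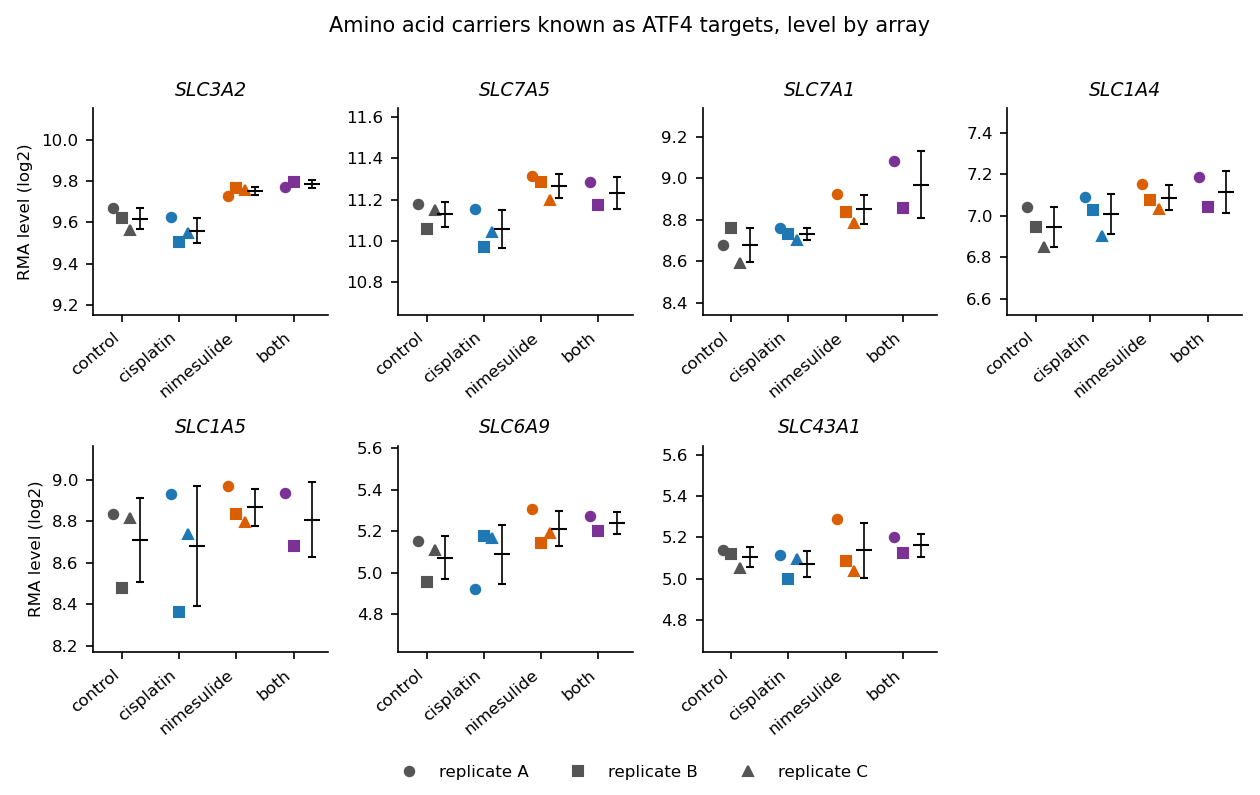
RMA level (log2) on each array for the 7 amino acid carriers known as ATF4 targets, by treatment and replicate letter, with the mean and standard deviation of each group as a black bar (n = 3, and n = 2 for both agents). Every panel spans 1 log2 unit. The arrays with nimesulide lie above all others for SLC3A2 and SLC7A1 and overlap them for the other 5 genes.

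Other amino acid carriers differed in other directions. SLC1A3, the glutamate carrier EAAT1, read 8.92, 8.89 and 8.96 in control A, B and C, 8.94, 8.80 and 8.95 with cisplatin, 8.89, 8.56 and 8.77 with nimesulide, and 8.89 and 8.85 with both agents. Nimesulide B was the lowest array by a wide gap, and the nimesulide difference of -0.18 (SE 0.081, adjusted p = 0.91) became -0.093 without it. The taurine carrier SLC6A6 read 5.69, 5.56 and 5.51 in control A, B and C, 4.95, 5.45 and 5.52 with cisplatin, 5.68, 5.59 and 5.51 with nimesulide, and 5.39 and 5.47 with both agents. Cisplatin A stood apart at the low end, and the cisplatin difference of -0.28 (SE 0.12, adjusted p = 0.968) became -0.10 without that array. The other probe sets of SLC6A6 differed by -0.023 and -0.037 for this comparison. SLC1A6, the glutamate carrier EAAT4, was lower with cisplatin within each letter, by differences of -0.22 to -0.098, at levels of 3.82 to 4.10 over all arrays. Its pooled cisplatin difference was -0.14 (SE 0.048, adjusted p = 0.673). SLC7A7, a light subunit that exports arginine and lysine, was lower on the arrays with nimesulide by a pooled difference of -0.12 (SE 0.065, adjusted p = 0.696), which was -0.081 without cisplatin A. SLC7A4, a relative of the cationic carriers with no established transport, had a cisplatin difference of 0.14 (SE 0.093, adjusted p = 0.968) that was 0.036 without control B and -0.007 without letter B. SLC38A10, a sodium-coupled neutral amino acid carrier, was higher with cisplatin in 5 of 5 differences within letters, from 0.008 to 0.12.

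The metal carriers had class medians near 0 as well. The pooled median was -0.003 for nimesulide with 6 of 12 genes higher, beside -0.003 and 48.3% higher over all genes. For cisplatin it was -0.014 with 4 of 12 higher, beside -0.015 and 40.7%. Within letters, nimesulide minus control had a class median of -0.006 in A, 0.13 in B and -0.055 in C. None of the 12 passed in any comparison. The copper importer SLC31A1 and the zinc importers SLC39A14 and SLC39A6 were the 3 with an unadjusted p below 0.05 for the combination against control, for which the share of all genes was 8.73%.

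SLC31A1 encodes CTR1, the high-affinity copper importer that has also been linked to platinum uptake. It read 6.39, 6.37 and 6.32 in control A, B and C, 6.44, 6.47 and 6.48 with cisplatin, 6.33, 6.53 and 6.60 with nimesulide, and 6.53 and 6.64 with both agents. The 3 control arrays lay between 6.32 and 6.39 and all 3 cisplatin arrays above them, and nimesulide A lay within the control range. Cisplatin differences within letters were 0.052 to 0.20, higher in 5 of 5. The pooled cisplatin difference was 0.10 (SE 0.056, adjusted p = 0.745) with a 95% interval of -0.020 to 0.22, and it was 0.060 without nimesulide A. The pooled nimesulide difference of SLC31A1 was 0.12 (SE 0.056, adjusted p = 0.66) with a 95% interval of 0.004 to 0.24, and letter A of nimesulide minus control was lower, at -0.063. The combination exceeded control by 0.22 (SE 0.083, adjusted p = 0.526), and the interaction was -0.009 with a 95% interval of -0.25 to 0.23. These intervals are not adjusted for the number of genes tested.

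SLC31A2, or CTR2, a copper carrier of endosomes and lysosomes, read 6.58, 6.68 and 6.63 in control A, B and C, 6.60, 6.78 and 6.62 with cisplatin, 6.55, 6.81 and 6.83 with nimesulide, and 6.65 and 6.74 with both agents. Its groups overlapped in every comparison, with a pooled cisplatin difference of -0.002 (SE 0.062, adjusted p = 0.997). SLC22A2, the organic cation carrier OCT2, which is known for cisplatin uptake in the kidney, read 5.62, 5.17 and 5.21 in control A, B and C, 5.31, 5.18 and 5.21 with cisplatin, 5.13, 5.33 and 5.18 with nimesulide, and 5.31 and 5.02 with both agents. Control A stood above the other 10 arrays, and the pooled cisplatin difference was -0.074 (SE 0.085, adjusted p = 0.884). The platinum-linked carriers SLC22A3 and SLC47A1 were not analysed here. Of genes that handle copper inside the cell, the exporters ATP7A and ATP7B and the chaperones ATOX1 and CCS were all measured, and COX17 was not analysed here. On the arrays with cisplatin these 4 had differences of -0.15 to -0.013 and none passed.

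The zinc importer SLC39A6, known as LIV-1, read 8.89, 8.84 and 8.86 in control A, B and C, 8.92, 8.90 and 8.95 with cisplatin, 8.90, 8.86 and 8.83 with nimesulide, and 9.05 and 9.01 with both agents. All 5 arrays with cisplatin lay above the 6 without it, and the 2 combination arrays were the highest. Its pooled cisplatin difference was 0.12 (SE 0.043, adjusted p = 0.675), while its other probe set, with a lower mean, differed by 0.011. SLC39A14, or ZIP14, which imports zinc, iron and manganese, read 8.50, 8.34 and 8.53 in control A, B and C, 8.61, 8.47 and 8.59 with cisplatin, 8.61, 8.51 and 8.51 with nimesulide, and 8.71 and 8.67 with both agents. It was higher with cisplatin within every letter, by 0.060 to 0.15, and the groups overlapped because control arrays A and C exceeded cisplatin B. The pooled cisplatin difference was 0.12 (SE 0.052, adjusted p = 0.707), and the combination against control differed by 0.23 (SE 0.078, adjusted p = 0.486). SLC39A8, or ZIP8, was lower on the arrays with nimesulide by a pooled difference of -0.096 (SE 0.057, adjusted p = 0.747), and its other 2 probe sets were higher, by 0.048 and 0.076. The zinc exporters SLC30A3 and SLC30A9 had pooled differences of 0.038 and 0.011 with nimesulide and -0.013 and -0.031 with cisplatin. SLC30A1, the plasma membrane zinc exporter that the rule left out, was higher by 0.34 with nimesulide (adjusted p = 0.336). The iron and manganese importer SLC11A2, or DMT1, was lower with cisplatin in 5 of 5 differences within letters, from -0.22 to -0.002.

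The metal response element, to which the zinc-sensing factor MTF1 binds, was searched as TGCACNC or TGCGCNC on both strands. It occurred in 29.5% of all promoters and in 6 of 17 promoters of metal carriers (35.3%). The SLC39A6 promoter holds it at position -17 and is shown because this gene separated the arrays with cisplatin from those without, while the SLC31A1 promoter holds none in this window.
SLC39A6, chr18:36129291-36129590, minus strand: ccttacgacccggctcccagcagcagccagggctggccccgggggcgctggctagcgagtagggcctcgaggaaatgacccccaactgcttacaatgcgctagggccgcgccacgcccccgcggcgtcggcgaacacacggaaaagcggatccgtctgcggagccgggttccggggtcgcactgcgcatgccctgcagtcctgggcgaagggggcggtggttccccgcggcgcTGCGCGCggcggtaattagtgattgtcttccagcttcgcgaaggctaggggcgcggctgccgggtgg

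**Figure D3:**
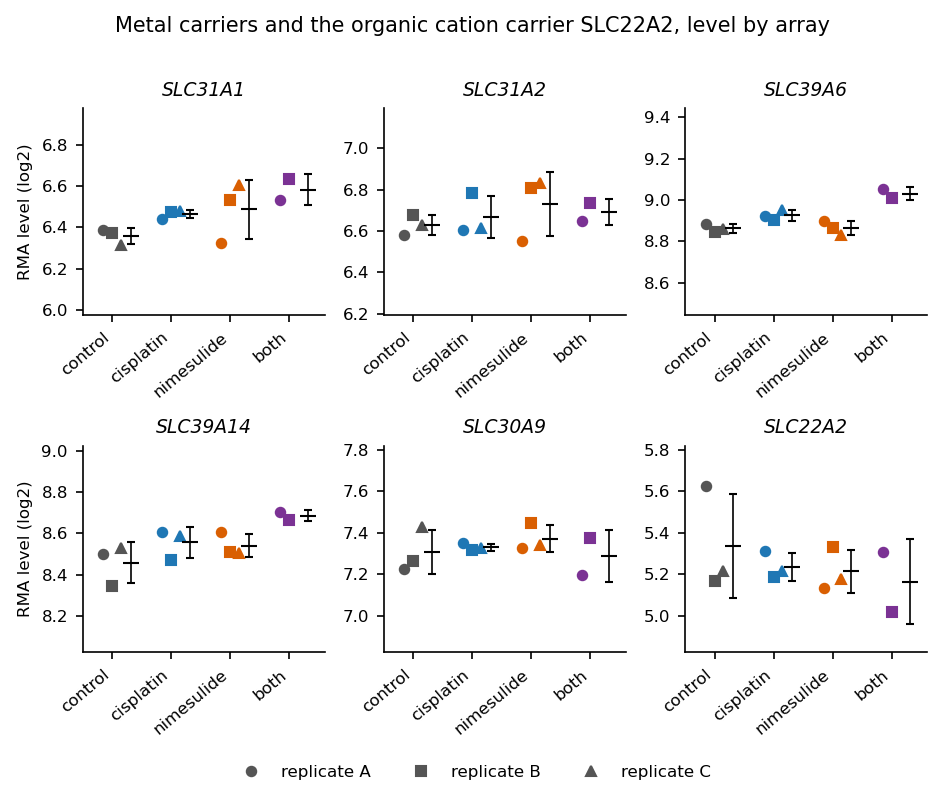
RMA level (log2) on each array for 5 metal carriers and the organic cation carrier SLC22A2, by treatment and replicate letter, with the mean and standard deviation of each group as a black bar (n = 3, and n = 2 for both agents). Every panel spans 1 log2 unit. The arrays with cisplatin lie above all others for SLC39A6, and the combination arrays are the highest or among the highest for SLC31A1 and SLC39A14.

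The 4 nucleoside carriers were the smallest of these classes, and none of them passed in any comparison. SLC29A1, or ENT1, which equilibrates nucleosides across the plasma membrane, read 6.86, 6.81 and 6.89 in control A, B and C, 6.83, 6.81 and 6.77 with cisplatin, 6.77, 7.03 and 6.83 with nimesulide, and 6.80 and 6.69 with both agents. Nimesulide B was the highest array, the groups overlapped, and the pooled cisplatin difference was -0.094 (SE 0.055, adjusted p = 0.749). The other probe set of SLC29A1 differed by -0.23 for the same comparison. SLC29A2, or ENT2, read 5.13, 4.61 and 4.88 in control A, B and C, 4.94, 4.61 and 4.93 with cisplatin, 5.02, 4.68 and 4.83 with nimesulide, and 5.05 and 4.65 with both agents. Its levels followed the replicate letters, with all B arrays below all A and C arrays, and the pooled differences were -0.006 for nimesulide and -0.023 for cisplatin. The concentrative carriers SLC28A1 and SLC28A2 move nucleosides with sodium. SLC28A1 ranged from 4.14 to 4.42 with pooled differences of 0.019 for nimesulide and 0.003 for cisplatin. SLC28A2 ranged from 3.77 to 4.04, and with both agents against control it differed by 0.17 (SE 0.081, adjusted p = 0.634). The other probe set of SLC28A2 had nearly the same mean level, 3.91 beside 3.92, and differed by -0.016 for this comparison. Pooled class medians were 0.006 for nimesulide and -0.010 for cisplatin, with 2 of 4 genes higher in each, beside -0.003 and -0.015 over all genes.

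The 9 organic ion carriers had small negative medians in every fitted comparison but the interaction, for which the median was 0.033. Medians of all genes were also negative outside the interaction, and smaller in size. The pooled median was -0.039 for nimesulide (all genes -0.003) and -0.044 for cisplatin (all genes -0.015), with 2 of 9 higher in each beside 48.3% and 40.7% of all genes. The combination against control had a median of -0.071 with 1 of 9 higher, beside -0.020 and 42.2%. Within letters the sign was mixed, with positive medians for nimesulide minus control B (0.050), combination minus cisplatin B (0.038), cisplatin minus control B (0.014) and combination minus nimesulide A (0.004). These comparisons share arrays, and none of the 9 genes passed. SLC10A1, or NTCP, the bile acid importer known from liver, read 3.64, 3.57 and 3.65 in control A, B and C, 3.61, 3.65 and 3.70 with cisplatin, 3.75, 3.78 and 3.70 with nimesulide, and 3.44 and 3.47 with both agents. The combination arrays were the lowest 2 of 11, the nimesulide arrays the highest 3, and the combination differed from control by -0.17 (SE 0.067, adjusted p = 0.558). The interaction for SLC10A1 was -0.32 (SE 0.090, adjusted p = 0.963). SLC22A4, or OCTN1, read 4.99, 5.18 and 5.07 in control A, B and C, 4.88, 5.00 and 5.00 with cisplatin, 4.99, 5.10 and 4.91 with nimesulide, and 4.89 and 4.99 with both agents. It was lower with cisplatin in 5 of 5 differences within letters, from -0.19 to -0.076, with overlapping groups and a pooled difference of -0.092 (SE 0.055, adjusted p = 0.764). The carnitine importer SLC22A5, or OCTN2, ranged from 5.62 to 5.995 and had a nimesulide difference of -0.14 (SE 0.093, adjusted p = 0.96). SLC22A14 and SLC10A3, whose substrates are less well known, had pooled cisplatin differences of -0.074 and 0.041.

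Among carriers of inorganic ions, SLC20A1 had the highest pooled nimesulide difference of the 155 genes, while SLC15A2 at -0.21 was as far from 0 on the lower side. SLC20A1 encodes PiT1, a sodium-driven phosphate importer, and read 8.15, 8.22 and 8.05 in control A, B and C, 8.27, 8.05 and 8.14 with cisplatin, 8.24, 8.38 and 8.31 with nimesulide, and 8.50 and 8.31 with both agents. Only cisplatin A, at 8.27, exceeded an array with nimesulide, and differences within letters were 0.088 to 0.26. The pooled nimesulide difference was 0.21 (SE 0.060, adjusted p = 0.351). Its relative SLC20A2, or PiT2, was also higher in 5 of 5, by 0.005 to 0.22, as was the bicarbonate carrier SLC4A5, by 0.010 to 0.15. SLC4A7, an electroneutral sodium bicarbonate importer that raises cell pH, read 6.36, 6.43 and 6.48 in control A, B and C, 6.50, 6.67 and 6.56 with cisplatin, 6.58, 6.25 and 6.46 with nimesulide, and 6.74 and 6.82 with both agents. Combination A and B were the highest arrays, nimesulide B was the lowest, and nimesulide A lay among the cisplatin arrays. The pooled cisplatin difference of SLC4A7 was 0.25 (SE 0.063, adjusted p = 0.673), and its other probe sets differed by 0.083, 0.088 and -0.042. Lower values with cisplatin were seen for the anion exchanger SLC4A1, or band 3, with a pooled difference of -0.13 (SE 0.048, adjusted p = 0.679), and for the sodium-proton exchanger SLC9A2, or NHE2, with -0.15 (SE 0.049, adjusted p = 0.673). SLC12A5, the neuronal potassium chloride exporter KCC2, had a nimesulide difference of -0.22 (SE 0.091, adjusted p = 0.906) that was -0.11 without control C.

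Sugar and nucleotide sugar carriers gave some of the wider differences of the combination. SLC5A1, or SGLT1, which imports glucose with sodium, read 4.37, 4.40 and 4.36 in control A, B and C, 4.38, 4.20 and 4.27 with cisplatin, 4.26, 4.59 and 4.37 with nimesulide, and 4.07 and 4.07 with both agents. Both combination arrays lay below the other 9, at a low mean level of 4.30 for SLC5A1, beside 5.40 for the median of all probe set means. The combination differed from control by -0.31 (SE 0.091, adjusted p = 0.391), and the interaction was -0.24 (SE 0.12, adjusted p = 0.963). The fructose carrier SLC2A5, or GLUT5, read 5.46, 5.57 and 5.49 in control A, B and C, 5.57, 5.58 and 5.56 with cisplatin, 5.61, 5.88 and 5.75 with nimesulide, and 5.53 and 5.57 with both agents. The 3 nimesulide arrays were the highest of 11, the combination arrays lay within the range of the cisplatin and control arrays, and the nimesulide difference was 0.24 (SE 0.071, adjusted p = 0.771). The other probe set of SLC2A5 differed by -0.085 for this comparison. SLC35D1, which carries UDP-glucuronic acid and UDP-N-acetylgalactosamine into the endoplasmic reticulum, read 6.20, 6.20 and 6.10 in control A, B and C, 6.18, 6.10 and 6.23 with cisplatin, 6.25, 6.08 and 6.20 with nimesulide, and 6.37 and 6.41 with both agents. The combination arrays were the highest 2, and the combination differed from control by 0.22 (SE 0.075, adjusted p = 0.484). The other 2 probe sets of SLC35D1 differed by 0.10 and 0.084 for this comparison. Their pooled cisplatin differences were 0.14 and 0.043, beside 0.11 for the probe set that stood for the gene. SLC35A2, the UDP-galactose carrier of the Golgi, had a cisplatin difference of 0.13 (SE 0.094, adjusted p = 0.968) that was 0.030 without cisplatin A. The insulin-regulated glucose carrier SLC2A4, or GLUT4, and the glucose-6-phosphate carrier SLC37A4 were lower with cisplatin in 5 of 5, from -0.29 to -0.018 and from -0.14 to -0.015.

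**Figure D4:**
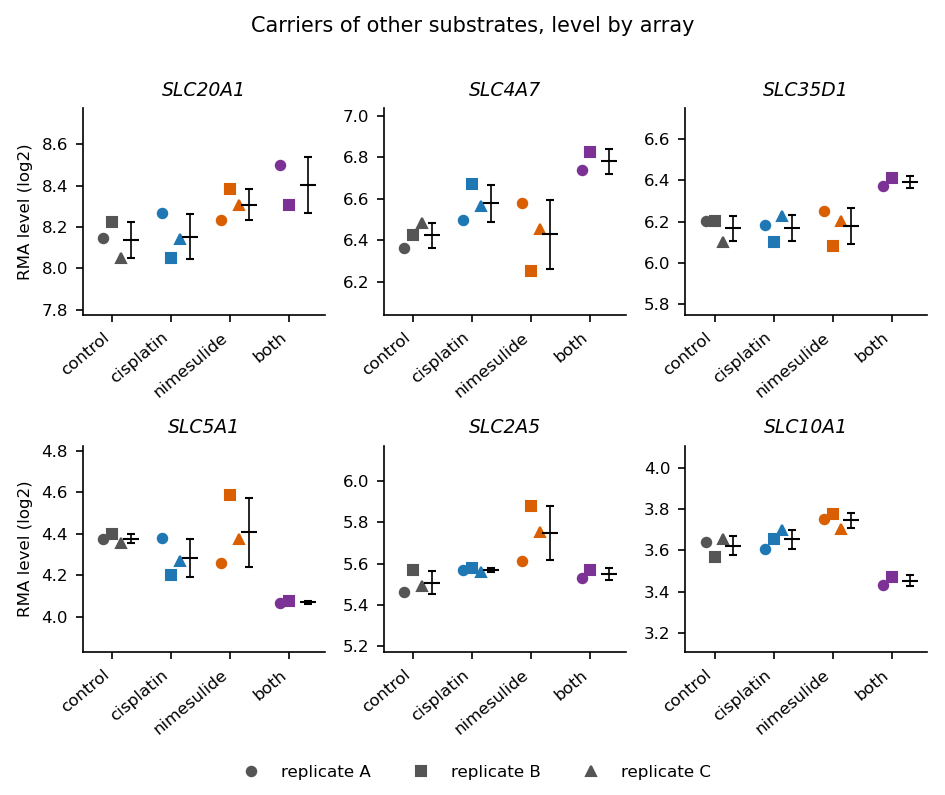
RMA level (log2) on each array for 6 carriers of phosphate, bicarbonate, nucleotide sugars, glucose, fructose and bile acids, by treatment and replicate letter, with the mean and standard deviation of each group as a black bar (n = 3, and n = 2 for both agents). Every panel spans 1 log2 unit. The combination arrays are the highest for SLC4A7 and SLC35D1 and the lowest for SLC5A1 and SLC10A1, and the nimesulide arrays are the highest for SLC2A5.

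The remaining carriers serve vitamins, mitochondria, peptides and vesicles. SLC19A2, the thiamine importer, read 5.29, 5.44 and 5.19 in control A, B and C, 5.27, 5.11 and 5.33 with cisplatin, 5.43, 5.58 and 5.31 with nimesulide, and 5.34 and 5.54 with both agents. It was higher with nimesulide within every letter, by 0.071 to 0.42, and the widest of these was in letter B of the combination. The pooled difference of SLC19A2 was 0.17 (SE 0.069, adjusted p = 0.633). SLC25A42, which carries coenzyme A into mitochondria, read 3.57, 3.61 and 3.69 in control A, B and C, 3.51, 3.49 and 3.41 with cisplatin, 3.74, 3.67 and 3.65 with nimesulide, and 3.42 and 3.54 with both agents. All 5 arrays with cisplatin lay below the 6 without it, and the pooled cisplatin difference was -0.18 (SE 0.049, adjusted p = 0.673). The mean level of SLC25A42 was low, at 3.57, beside 5.40 for the median of all probe set means. SLC15A2, the peptide importer PEPT2, read 5.41, 5.35 and 5.60 in control A, B and C, 5.44, 5.45 and 5.58 with cisplatin, 5.28, 4.75 and 5.48 with nimesulide, and 5.27 and 5.42 with both agents. It was the 1 gene lower with nimesulide in 5 of 5, but nimesulide B stood far below the rest, and the pooled difference of -0.21 (SE 0.11, adjusted p = 0.678) was -0.11 without that array. The other probe set of SLC15A2 differed by 0.020.

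Mitochondrial carriers included the gene with the steadiest level. SLC25A3, the mitochondrial phosphate carrier, varied by 0.11 over the 11 arrays, the narrowest range of the 155, with pooled differences of 0.021 for nimesulide and -0.018 for cisplatin. SLC25A5, the adenine nucleotide exchanger ANT2, ranged from 11.58 to 11.76 and was higher with nimesulide in 5 of 5, by 0.004 to 0.098. SLC25A24, a calcium-regulated carrier of ATP-magnesium and phosphate, had pooled differences of 0.062 and 0.036. SLC25A36, a pyrimidine nucleotide carrier, had a nimesulide difference of 0.14 (SE 0.064, adjusted p = 0.916), while its other 2 probe sets differed by -0.11 and -0.002. At the other end, the sulfate carrier SLC26A2 had the widest range, 1.09, and read 5.91, 5.82 and 5.14 in control A, B and C, 5.46, 6.23 and 5.59 with cisplatin, 5.47, 5.70 and 5.59 with nimesulide, and 5.74 and 5.97 with both agents. Control C was its lowest array and cisplatin B its highest, and its groups overlapped. The urate carrier SLC17A3 and its relative SLC17A2 were lower with cisplatin in 5 of 5, from -0.36 to -0.070 and from -0.098 to -0.045. Classes followed the SLC family, so SLC17A3 was counted in the neurotransmitter and vesicular class and not among the organic ion carriers. SLC66A3, with no assigned substrate here, had a nimesulide difference of -0.24 (SE 0.078, adjusted p = 0.894), and its other probe set differed by 0.050.

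The nimesulide difference can be taken with and without cisplatin from comparisons with no array in common, nimesulide against control and the combination against cisplatin. Over the 155 solute carriers the differences in these comparisons had the same sign for 97 genes (62.6%, all genes 52.9%), with Pearson's r of 0.182 and Spearman's rho of 0.204 across genes, beside 0.291 and 0.129 over all genes. Without the 7 genes of the ATF4 list the r of the solute carriers was 0.087. That list was chosen knowing that ATF4 response genes stood higher with nimesulide, so the lower r is not independent evidence. For the matching cisplatin differences, taken without and with nimesulide, 95 genes (61.3%, all genes 53.2%) had the same sign, with r of 0.215 and rho of 0.197, beside 0.102 and 0.0788 over all genes. Genes are not independent replicates, and all points of a comparison share its arrays.

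**Figure D5:**
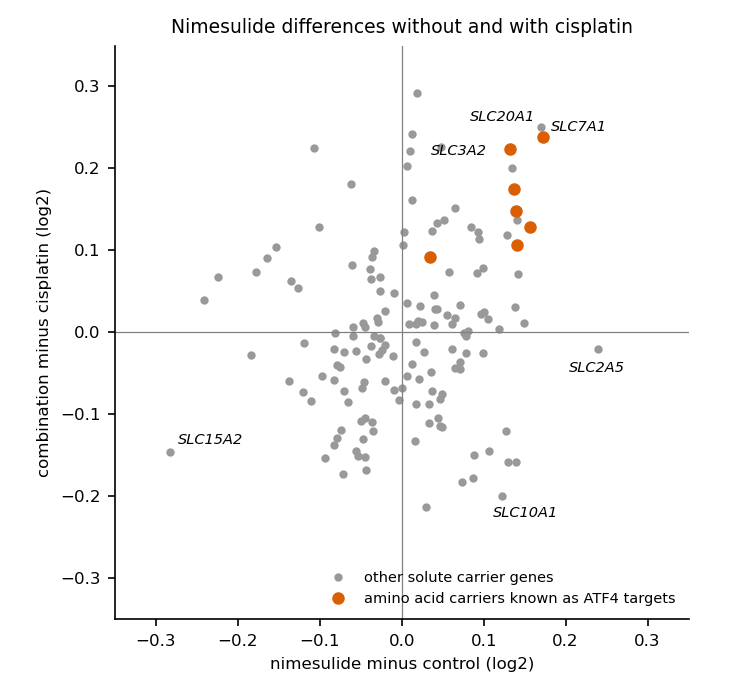
Log2 difference between nimesulide and control (horizontal) and between the combination and cisplatin (vertical) for the 155 solute carrier genes. The 7 amino acid carriers known as ATF4 targets (orange) all lie in the upper right quadrant, while SLC2A5 and SLC10A1 lie to the right and below 0.

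Related carriers and pumps outside the SLC symbols were few and none was called. Of the SLCO organic anion carriers 7 of 11 were measured, and of the sodium pump subunits, whose gradient drives many of these carriers, 3 of 6. None of them passed in any comparison by limma with Benjamini-Hochberg adjustment.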

How the data were processed

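Total RNA of 11 samples was hybridised to Affymetrix U133A arrays, 1 array each. Per the labels, the authors normalised with RMA, and the deposited values are log2 intensities. The RMA version was not given in the sources used here. Of 16383 probe sets, the annotation table named 1 gene for 14045, several for 792 and none for 1546. The 7 SLC probe sets with several symbols were left out, 246 probe sets named a member, and 57 members had more than 1.

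Group means of all 11 arrays were fitted with limma 3.58.1 in R 4.3.3, with 7 residual degrees of freedom. Benjamini-Hochberg adjustment ran over all probe sets. The fit was tested on simulated data with independent noise and shifts wider than any fitted difference of a solute carrier. That test therefore does not cover differences of the size given here, or likeness between arrays of a letter. The deposited protocol lists RNA preparations by letter. Deviations from group means, correlated over genes, gave 0.135 to 0.355 for same-letter pairs of control and single agent, 0.0831 to 0.232 for the other same-letter pairs, and -0.251 to 0.144 for different letters, so the letters pair the single-agent comparisons. Standard errors, intervals and p-values of single genes come from the fit without this pairing, unless the replicate block is named. The alternatives were the replicate block, each array or letter left out, a gene's median over its probe sets, quantile normalization, a level filter, and a trended robust fit.

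The members, substrate lists and the ATF4, platinum and marker lists were chosen with earlier results of these data known. The 50 named genes were the 4 smallest p in each direction of 5 comparisons, the ATF4 and platinum lists, the nucleoside class, the genes with the highest levels, and up to 4 whose 5 differences within letters agree in sign. Others were named after their values were seen, as members of counts of 10 or fewer or, for SLC26A2, for its range.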

Additional observations from a re-analysis of the deposited data

Results flagged for a closer look

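Among the named genes, some differences of 1 agent pointed one way in every letter without the other agent and the opposite way in both letters with it. The values given are the fitted differences, and the interaction is the difference between them. For SLC10A1 the nimesulide difference was 0.12 without cisplatin and -0.20 with it, an interaction of -0.322 (SE 0.0901) with an unadjusted p of 0.00313 that did not pass after adjustment over all probe sets (limma, adjusted p = 0.963). For SLC2A5 the nimesulide difference was 0.24 without cisplatin and -0.020 with it, and the cisplatin difference 0.062 without nimesulide and -0.20 with it. The fit has a single interaction for both views of SLC2A5, -0.26 (SE 0.107, unadjusted p = 0.0292, limma adjusted p = 0.963). For SLC24A1, a potassium-dependent sodium-calcium exchanger, the cisplatin difference was 0.18 without nimesulide, or 0.12 without control B or without cisplatin C, and -0.11 with nimesulide. Its interaction was -0.287 (SE 0.121, unadjusted p = 0.0325, limma adjusted p = 0.963). The other probe sets of SLC24A1 had cisplatin differences of 0.008, 0.024 and 0.011 without nimesulide. For SLC3A2 the cisplatin difference was -0.059 without nimesulide and 0.033 with it, an interaction of 0.092 (SE 0.0912, unadjusted p = 0.329, limma adjusted p = 0.965). The causes of these differences were not tested.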

How the results depend on the processing

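No solute carrier passed an adjusted p of 0.05 in any of the 8 comparisons under any alternative that could be run, so all 152 counts stayed at 0. With the replicate block the pooled nimesulide median of the ATF4 list was 0.15, and the smallest adjusted p was 0.198, for SLC7A1. Of 288 values of class medians, 268 moved by less than the spread between replicates and 20 moved more. That spread was the standard deviation of the class median over the differences within letters. Part of the 268 could not move. Leaving out an array outside a comparison does not change its difference, and neither does the replicate block for a single agent against control. These counts are therefore no measure of robustness. With single arrays left out, the amino acid median for cisplatin against control ran from -0.066 to 0.007, the nucleoside median from -0.069 to 0.014 and the organic ion median from -0.060 to 0.000, and the nucleoside median for pooled cisplatin from -0.086 to 0.066. Without letter A the nucleoside and organic ion medians for cisplatin against control were -0.014 and -0.057, and without letter B the organic ion median was -0.009. Also without letter B, the pooled cisplatin median of the nucleoside class was 0.051 and the organic ion median for nimesulide against control was -0.080. With each gene taken as the median over its probe sets, the pooled cisplatin median of the amino acid class was -0.034, and the organic ion median for cisplatin against control was -0.003. With probe sets above the median level alone, which left 1 nucleoside and 3 organic ion carriers, the pooled cisplatin medians were -0.094 and 0.041, and the organic ion median for nimesulide against control was -0.075. Of 836 values of named genes 833 kept their sign. Part of these could not change for the same reasons, and the trended robust fit changes no difference. The genes were also chosen from these data for small p or agreeing signs, so this count is not independent evidence. With each gene taken as the median over its probe sets, SLC25A36 was at -0.002 for nimesulide and SLC35A2 at -0.145 for cisplatin, and without letter B SLC7A4 was at -0.007 for cisplatin. Where no construction of the alternative shows it, the cause was not tested. The number of arrays and signal near background limit what these values can show. Genes with low mean levels included SLC25A42 (3.57), SLC10A1 (3.63), SLC2A4 (3.63), SLC12A5 (3.86), SLC28A2 (3.92), SLC1A6 (3.94), SLC9A2 (4.04) and SLC5A1 (4.30).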
